A study of Homo sapiens with 3 samples.

Results

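Binding of HA-PSF-TFE3 was examined at 7 genes that control entry into and progress through the cell cycle, namely CDKN1A, CDKN1B, CDKN2A, CDKN2B, CCND1, CDK6 and MYC. The protein is an HA-tagged fusion of PSF, whose gene is SFPQ, with TFE3. Its DNA contacts were mapped by ChIP-seq, in which fragments bound by the tagged protein are captured with an anti-HA antibody and sequenced, in HK-2 cells, a human proximal tubule line, after 24 h with 0.2 µg/ml doxycycline, which switches the fusion on. The 2 ChIP libraries, replicates 8 and 9, came from 2 clones of these cells, so that library and clone cannot be told apart. A library of input DNA from the same induced cells served only as the background of peak calling, and uninduced cells were not analysed here. Each list holds 1 summit per peak, the single base of highest enrichment, with a score that is the −log10 of the caller's q-value. Members were all summits, whatever their score, in 6 windows, each a gene with flanks of about 10 kb on hg19. The choice was made with earlier results of these data known, so no chance test over the members was made. The windows were 32 kb on chromosome 6 for CDKN1A, 26 kb on chromosome 12 for CDKN1B, 63 kb on chromosome 9 for CDKN2A with CDKN2B, 35 kb on chromosome 11 for CCND1, 252 kb on chromosome 7 for CDK6 and 26 kb on chromosome 8 for MYC. They held 25 of the 44983 summits of replicate 8 (0.0556%) and 16 of the 28084 of replicate 9 (0.0570%).

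Progress from the resting state to DNA replication is governed by cyclin-dependent kinases. Cyclin D1, the product of CCND1, activates CDK6 and its close relative CDK4, and these kinases phosphorylate the retinoblastoma protein and so release the E2F factors that drive replication genes. The CDKN2A and CDKN2B products block CDK4 and CDK6, the second CDKN2A product, ARF, stabilises p53, and the CDKN1A and CDKN1B products, p21 and p27, restrain cyclin-kinase complexes more broadly. MYC encodes a transcription factor that promotes growth and proliferation and itself reads E-box DNA. HK-2 cells were immortalised with papillomavirus oncogenes, whose proteins inactivate p53 and the retinoblastoma protein. TFE3 belongs to the MiT/TFE family, which binds E-boxes of the form CACGTG or CATGTG.

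Promoters of the 4 inhibitor genes are printed, because the letters the MiT/TFE family reads can be looked for there. The sequences are from RefSeq on GRCh38.p14, a different build from that of the summits, so that no summit was placed on them. Each runs 5′ to 3′ over the 250 bases before a transcription start. For CDKN1A the stretch was chr6:36678464-36678713 on the plus strand, for CDKN1B chr12:12717118-12717367 on the plus strand, for CDKN2A, at its outer start, chr9:21995325-21995574 on the minus strand, and for CDKN2B chr9:22009306-22009555 on the minus strand. Capitals would mark a motif, and none was found in them.
CDKN1A: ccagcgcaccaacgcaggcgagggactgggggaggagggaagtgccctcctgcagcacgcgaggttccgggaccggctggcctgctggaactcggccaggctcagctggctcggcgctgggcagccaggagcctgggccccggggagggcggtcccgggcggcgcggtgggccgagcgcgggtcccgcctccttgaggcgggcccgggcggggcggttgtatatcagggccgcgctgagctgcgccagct
CDKN1B: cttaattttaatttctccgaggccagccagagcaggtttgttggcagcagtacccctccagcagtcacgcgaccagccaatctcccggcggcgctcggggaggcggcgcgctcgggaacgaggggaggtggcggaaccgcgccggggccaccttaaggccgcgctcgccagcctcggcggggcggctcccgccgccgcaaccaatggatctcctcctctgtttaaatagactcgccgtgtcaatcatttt
CDKN2A: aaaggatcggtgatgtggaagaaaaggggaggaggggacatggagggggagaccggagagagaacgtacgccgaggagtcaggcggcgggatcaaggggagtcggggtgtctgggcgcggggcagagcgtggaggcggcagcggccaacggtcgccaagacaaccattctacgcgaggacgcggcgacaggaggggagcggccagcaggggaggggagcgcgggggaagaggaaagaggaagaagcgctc
CDKN2B: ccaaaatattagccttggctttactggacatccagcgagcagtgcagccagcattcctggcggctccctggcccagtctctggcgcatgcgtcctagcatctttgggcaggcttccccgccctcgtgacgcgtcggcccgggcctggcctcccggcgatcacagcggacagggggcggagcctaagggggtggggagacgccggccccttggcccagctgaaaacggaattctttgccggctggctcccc
The last is a stretch of 30 bases at the outer CDK6 start, chr7:92836526-92836555 on the minus strand, with its E-box in capitals.
CDK6: cgaggccgcggaCACGTGcggagagccgac

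The promoter table held 7 entries for 5 of the genes, with 2 each for CDKN2A and CDK6. It had none for CCND1 or MYC. Each entry spans 250 bases before to 50 after a start, and both strands were searched. CACGTG occurred in 1 of the 7, the outer CDK6 promoter, where it began 30 bases after the start, compared with 7.26% of all 35116 promoters in the table. The extended palindrome TCACGTGA (0.980% of all promoters), CATGTG or its complement CACATG (11.1%), and the AP-1 letters TGAGTCA or the complement TGACTCA (4.95%) were in none of the 7. TCACGTGA contains CACGTG, so those matches overlap. These matches describe letters in short windows and are not binding sites.

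Positions within a window are given from a nominal gene start, the window's end less 10 kb on the 5′ side. The nominal spans differed from the RefSeq gene spans by at most 1.68 kb, so that distances from the start are good to about 2 kb only. A summit was called shared if the other library had a summit within 200 bp. In replicate 8, 12 of the 25 summits were shared (48.0%, 95% Wilson interval 30.0 to 66.5%), beside 47.9% of its whole list. In replicate 9 it was 12 of 16 (75.0%, 95% Wilson interval 50.5 to 89.8%), beside 76.6% of its list. The intervals cover counting error only. Recurrence at the cell cycle genes was thus at the level of the lists as a whole.

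The 12 shared summits of each list formed 12 pairs of mutually nearest summits, with 6 at CDK6, 4 at CDKN1A, 1 at CCND1 and 1 at MYC. CDKN1B and the CDKN2A/CDKN2B window had none. Pairs were 2 to 166 bp apart with a median of 51 bp, beside a median of 52 bp over all 21518 pairs of the series. The median score of the members was 7.72 in replicate 8, where the whole list had 8.20, and 7.15 in replicate 9, where it had 10.5. Scores above the list's median were held by 12 of 25 members in replicate 8 and by 5 of 16 in replicate 9.

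**Figure D1:**
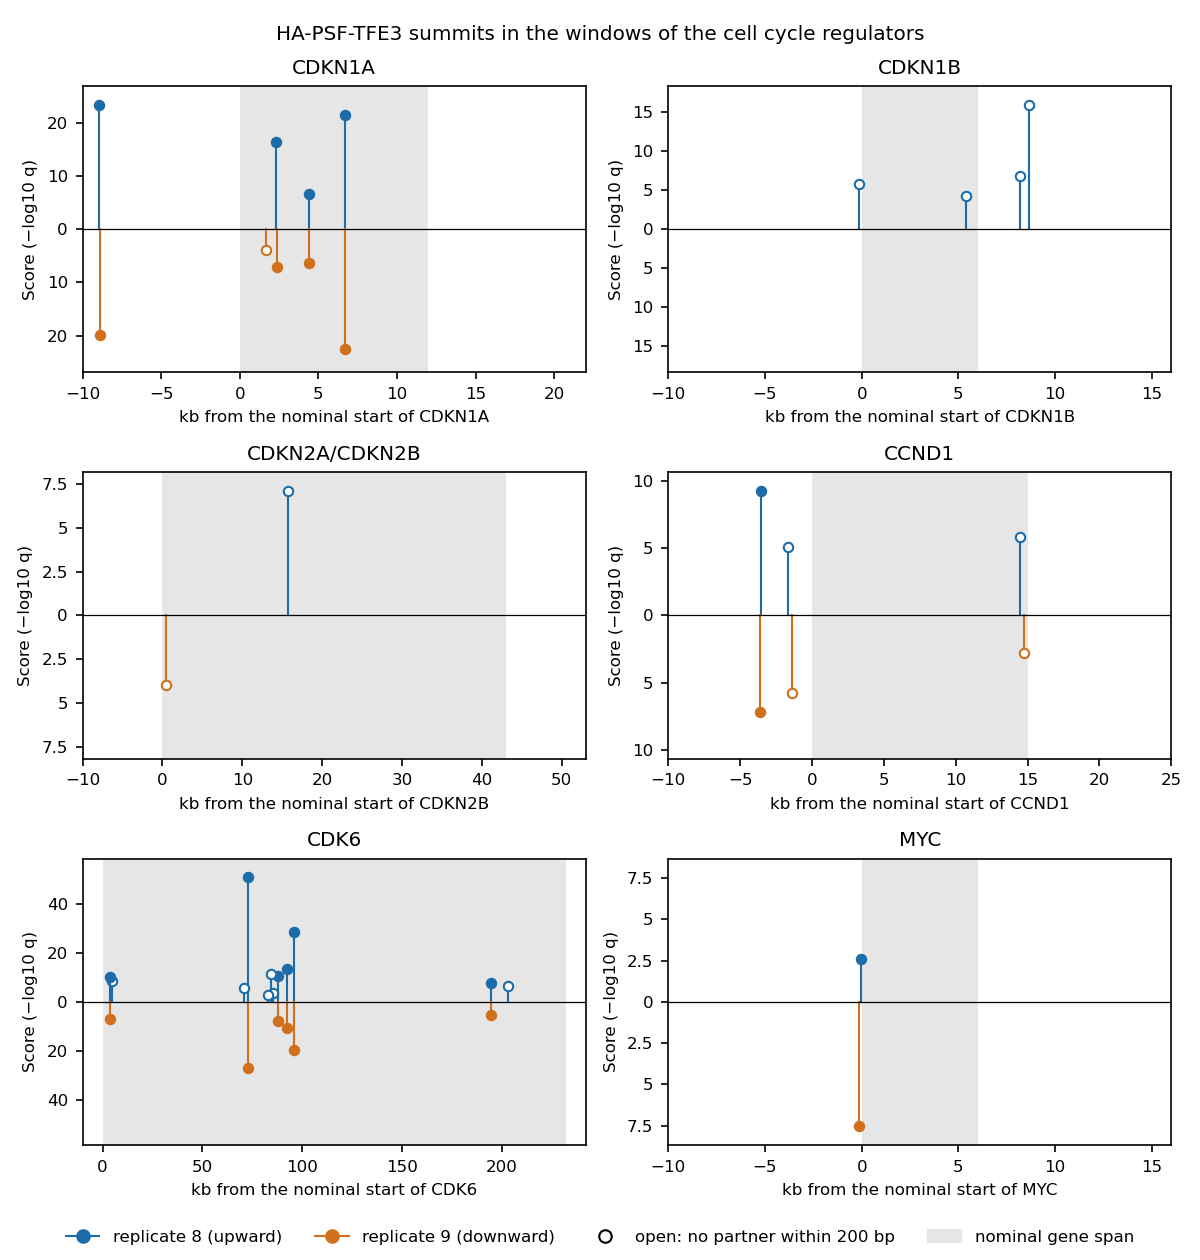
Score (−log10 q) of every summit against its distance in kb from the nominal gene start, one panel per window, with replicate 8 upward and replicate 9 downward; each panel has its own score axis, filled points have a partner within 200 bp in the other library, open points have none, and grey marks the nominal gene span. CDKN1A and CDK6 show mirrored filled summits, CDKN1B has 4 open summits in replicate 8 only, and the CDKN2A/CDKN2B window has 1 open summit in each library.

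CDKN1A, which encodes p21, carried 4 shared sites, more than any other inhibitor. Replicate 8 had 4 summits in the 32 kb window and replicate 9 had 5. Of all non-overlapping windows of that width along the genome, 2.63% held at least 4 summits in replicate 8 and 0.443% held at least 5 in replicate 9. At least 1 pair was present in 16.2% of them, and the share with at least 4 pairs was not computed. Here and below such genome windows include gene-poor sequence and assembly gaps, so they are not a set of genes.

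The CDKN1A site whose summits lay closest together was inside the gene, 6.67 kb from the nominal start, at 36650666 in replicate 8 and 36650668 in replicate 9. Its scores were 21.4 and 22.5, above those of 84.3% and 76.3% of the summits of the respective lists. The upstream site, 8.96 kb before the nominal start at 36635038 and 36635119, had scores of 23.4 and 19.9, and the former was the highest of the window in replicate 8. Both libraries therefore placed their 2 strongest CDKN1A summits at the same 2 sites.

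Another CDKN1A pair lay at 36646316 and 36646339, 2.32 and 2.34 kb inside the nominal start. The RefSeq start whose promoter is printed above lies 2.25 kb inside the gene's outermost start, a similar offset within the accuracy of these distances. The scores of this pair were 16.3 in replicate 8 and 7.04 in replicate 9, with ranks of 10692 of 44983 and 18644 of 28084. The last pair, at 36648418 and 36648391, was weaker in both, at 6.60 and 6.31. Replicate 9 alone had one more summit at 36645685 with a score of 3.96, 631 bp from the nearest replicate 8 summit. The noncoding RNA genes DINOL, which overlaps CDKN1A, and PANDAR, 1.34 kb from it in RefSeq, share this neighbourhood, and the lists do not assign a summit to a gene.

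CDKN1B, which encodes p27, differed between the libraries. Replicate 8 had 4 summits in the 26 kb window and replicate 9 had 0. At least 4 summits were found in 1.83% of all genome windows of this width in replicate 8, and at least 1 in 16.0% in replicate 9. A pair was present in 13.7% of them. The replicate 9 list had no summit from 12826309 to 12956440, a stretch of 130 kb. A missing summit means that no peak passed the authors' threshold in that library, and not that the site was unbound.

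The strongest CDKN1B summit lay downstream of the nominal gene span at 12878634, 8.63 kb from the nominal start, with a score of 15.9 and rank 10810 of 44983. Of the 1001 replicate 8 summits closest to it in rank, itself included, 80.1% had a replicate 9 summit within 200 bp, whereas its own nearest was 52.3 kb away. Its neighbour at 12878200 scored 6.85, rank 25723. The RefSeq gene APOLD1 begins 3.55 kb beyond CDKN1B, and, at the accuracy of these distances, it is not settled on which side of that gene's start both summits lie. The summit at 12869847, 0.153 kb before the nominal start, scored 5.83, rank 29220, and that at 12875401, inside the gene span, scored 4.21, rank 36393. Both ranks exceed 28084, the length of the replicate 9 list, so both summits drop out at equal list lengths. Of replicate 8 summits around rank 29196, only 27.1% were shared. GPR19 lies 0.122 kb from CDKN1B in RefSeq, so the summit at 12869847 is close to both genes.

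The CDKN2A/CDKN2B window, which spans the p16, ARF and p15 genes, had no shared summit. Each library had 1 summit in its 63 kb, and they lay 15.3 kb apart. At least 1 summit was found in 38.0% of all genome windows of this width in replicate 8 and in 29.9% in replicate 9, and at least 1 pair in 26.5%. The replicate 8 summit, at 21994210, scored 7.11 and lay 15.8 kb from the nominal start of CDKN2B. In RefSeq the outer start of CDKN2A, that of the ARF transcript, lies 14.0 kb from the CDKN2B start. The replicate 9 summit, at 22009487, scored 3.96 and lay 0.513 kb from the nominal CDKN2B start. Its rank was 25242 of 28084. Among summits of like rank, 36.3% in replicate 8 and 56.6% in replicate 9 had a partner in the other library. Beyond the window both libraries had their next summits at nearly the same places, so that each had 1 summit in a stretch of 243 kb. The antisense gene CDKN2B-AS1 overlaps the window, and the summits cannot be assigned to it or to the inhibitors.

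CCND1, the cyclin D1 gene, had 3 summits in each library. At least 3 were found in 6.09% of all 35 kb windows of the genome in replicate 8 and in 2.89% in replicate 9, and at least 1 pair in 17.3%. The site farthest upstream, 3.56 kb before the nominal start, was shared, at 69451437 and 69451416, with scores of 9.23 and 7.13. These were the highest CCND1 scores of both libraries. The second lay 1.67 kb before the nominal start in replicate 8, at 69453334 with a score of 5.09, and 1.36 kb before it in replicate 9, at 69453640 with a score of 5.73. The third lay near the 3′ end of the nominal gene span, at 69469499 with a score of 5.84 and at 69469724 with a score of 2.79. These sites were 306 and 225 bp apart between the libraries and so missed the 200 bp limit. With 500 bp they were shared, and CCND1 then had a partner for every summit.

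**Figure D2:**
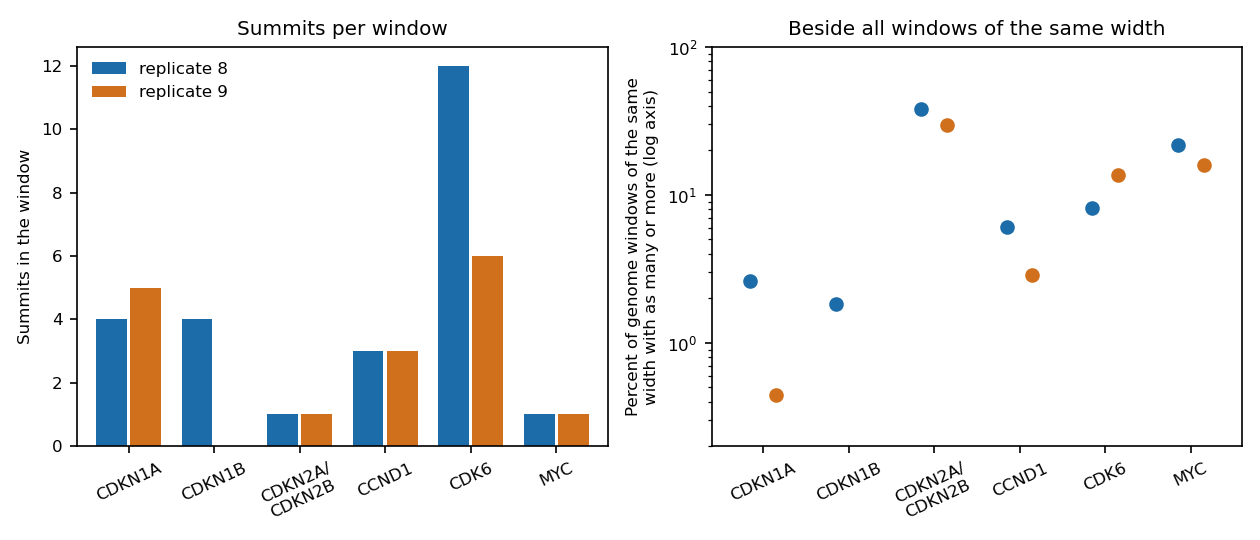
Left, number of summits in each window by library, as bars from 0; right, percentage of all genome windows of the same width that hold as many or more summits (log axis), where CDKN1B has no replicate 9 point because that library had 0 summits. CDKN1A has the lowest percentage in replicate 9, 0.443%, and the CDKN2A/CDKN2B window the highest in both libraries, 38.0% and 29.9%.

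CDK6, the kinase partner of cyclin D1, held the strongest summit of the 7 genes in both libraries, but its window was also the widest and held the most summits. Its 252 kb window had 12 summits in replicate 8 and 6 in replicate 9, and each of the 6 had a replicate 8 partner. Because the gene is long, such counts were not rare. At least 12 were found in 8.16% of all genome windows of this width in replicate 8, at least 6 in 13.7% in replicate 9, and at least 1 pair in 56.1%. The share of windows with at least 6 pairs was not computed. All lay inside the nominal gene span and none in its flanks.

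The strongest CDK6 site lay 72.9 kb inside the gene, at 92393124 in replicate 8 and 92393107 in replicate 9, 17 bp apart. Its score was 50.9 in replicate 8, rank 363 of 44983, and 27.2 in replicate 9, rank 5205 of 28084. The second strongest, 95.8 kb inside, was at 92370204 and 92370159 with scores of 28.6 and 19.9. Between them lay shared sites at 92373520 and 92373594, with scores of 13.5 and 10.9, and at 92378169 and 92378235, with scores of 10.7 and 7.66. The 4 sites had the same order of scores in both libraries.

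This stretch from 70 to 100 kb inside the gene, whose limits were set after the values were seen, held 8 of the 12 summits of replicate 8 and 4 of the 6 of replicate 9. The other 4 summits of replicate 8 in it had no partner. The highest of these, at 92381825, scored 11.3 and had its nearest replicate 9 summit 3.59 kb away, whereas 63.0% of replicate 8 summits of like rank had a partner within 200 bp. The remaining 3 unpaired ones scored 2.72 to 5.44.

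Nearest to the CDK6 start, a shared pair lay 3.79 and 3.62 kb inside it, at 92462213 and 92462379, with scores of 9.96 and 7.17. At 166 bp these were the farthest apart of the 12 pairs. Replicate 8 had another summit at 92461463, with a score of 8.47 and 916 bp from the nearest in replicate 9. The inner CDK6 start in RefSeq lies 2.61 kb inside the outer one, and the CACGTG shown above is at the outer one. Deep in the gene, 195 kb from the start, a pair at 92271395 and 92271483 scored 7.72 and 5.44. An unpaired replicate 8 summit at 92262890 scored 6.28. CDK6-AS1 and other noncoding RNA genes overlap CDK6 in RefSeq.

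MYC had 1 summit in each library, and they formed a pair just before the nominal start, at 128747943 in replicate 8 and 128747886 in replicate 9, 57 bp apart. At least 1 summit was found in 21.8% of all 26 kb windows of the genome in replicate 8 and in 16.0% in replicate 9, and at least 1 pair in 13.7%. The scores differed in the opposite direction to most other members. The score was 2.61 in replicate 8, the lowest of its 25 members and above only 2.83% of its list, and 7.54 in replicate 9, above 35.5% of its list. CASC11, a noncoding RNA gene, lies 1.47 kb from MYC in RefSeq.

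Scores are not scaled between libraries, so the pairs were also compared by their standing within each list. In 11 of the 12 pairs (91.7%) the summit had the higher percentile in replicate 8, beside 74.3% of all pairs. The median difference, replicate 9 minus replicate 8, was -18.6 percentile points among the members and -10.5 over all pairs. The replicate 8 list was the longer and had the lower median score, and the part of this in the difference was not tested. In the longer list the same rank from the top gives a higher percentile. By rank from the top the direction was mixed. The CDKN1A pair at 36650666 ranked 7056 in replicate 8 and 6636 in replicate 9, and the CDK6 pair at 92393124 ranked 363 and 5205. By percentile MYC was the exception, with 32.6 points in favour of replicate 9. That is outside the range from -51.5 to 18.7 that held the central 90% of all pairs. The widest difference the other way was that of the CDKN1A pair at 36646316, at -42.6 points, which was within that range. With 1 pair of libraries no test of these differences was possible.

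**Figure D3:**
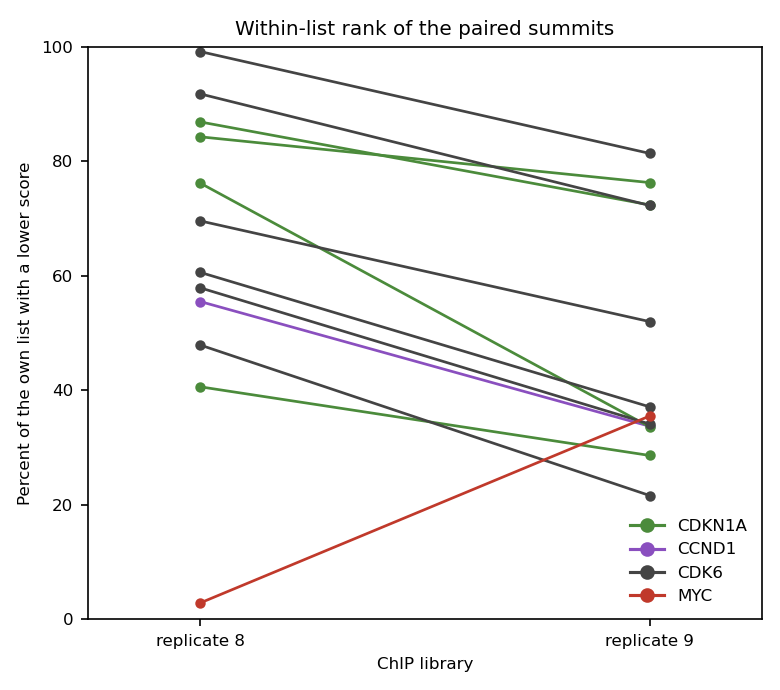
Percentage of the summits in its own list that scored lower, for the 12 paired summits, each line joining a replicate 8 summit to its replicate 9 partner and coloured by gene. All lines fall from replicate 8 to replicate 9 except that of MYC, which goes from 2.83 to 35.5.

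The windows had sharp limits, and some of the first summits beyond them, mainly the stronger ones, were as follows. At CDKN1A the upstream pair lay 1.04 and 1.12 kb inside the window, and the next pair, 7.97 and 7.93 kb outside it, scored 33.7 and 55.3, higher than every CDKN1A summit within. At CCND1 the first summits beyond the 3′ side lay 17.1 kb outside in both libraries, with scores of 16.9 and 40.9, also above those within. Beyond the 5′ side of CDK6 the first were 57.9 and 57.8 kb outside, with scores of 44.8 and 39.7, and beyond the 3′ side of MYC 42.8 and 42.7 kb outside, with scores of 35.4 and 31.5. Beyond the 5′ side of CDKN1B the first lay 33.7 kb outside in both libraries, with scores of 18.4 and 22.5, above the highest within, 15.9. On some sides the libraries differed, such as the 5′ side of CCND1, with scores of 27.4 and 3.15, and that of MYC, with 3.89 and 23.4. The sides that follow had weaker first summits in both libraries. Beyond the 3′ side of CDKN1A they lay 12.4 and 12.5 kb outside and scored 7.30 and 9.84. Beyond the 3′ side of CDK6 they lay 66.5 and 170 kb outside and scored 5.70 and 4.99. None of these outside sites was assigned to the cell cycle genes, and the lists give no means to do so.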

How the data were processed

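Peak summits of HA-PSF-TFE3 were taken from doxycycline-induced HK-2 cells. Samples were grouped by their titles into 2 ChIP libraries and 1 input library. The authors called peaks with MACS2 (version not given in the sources used here) in each ChIP library against the input, without pooling. The deposited scores are −log10 q-values of peak summits. The lowest, 1.37 and 1.33, lie above 1.30, the −log10 of a stated cutoff of 0.05. The study also states a p-value cutoff and a filter on fold enrichment, so the settings are not certain. The submitters' notes name hg19, whereas a description by the authors names hg38. Beyond hg38 chromosome ends lay 364 and 262 summits, so hg19 was taken as the build. The series' design text names another TFE3 fusion, and the sample labels were followed.

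The members and lists were chosen with earlier results of these data known. All 7 genes are reported, in order of role. For each window the highest summit of each library, the pairs, the summit nearest to the nominal start and the highest unpaired summit are named. Standing is the percentage of a library's list with a lower score. Summits of like rank are the 500 on each side in the same list. Genome windows were laid end to end up to the last summit of each chromosome. Strands came from GENCODE 44, and names, lengths and promoters from RefSeq. Counts of summits at other cell cycle genes, planned for an annotation of the summits' build, were not run. No conditions were compared, because both ChIP libraries belong to one group. Alternatives were distances of 50 and 500 bp, minimum scores of 5 and 10, lists of equal length, flanks of 5 and 20 kb, merging under 500 bp and leaving out each replicate. The distance functions were tested on simulated data. The study states read totals of similar size for both ChIP libraries, slightly higher for replicate 8. The deposited lists hold no read counts, so no precision from depth was computed for a score. Python 3.11.15, numpy 2.4.6, scipy 1.17.1 and matplotlib 3.10.9 were used.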

Additional observations from a re-analysis of the deposited data

How the results depend on the processing

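Of 40 values recomputed under the alternatives, 35 stayed within 1.5 times the count, the interval or the spread of the reported value and 5 moved. The 35 include the values with a replicate left out, which could not move. Leaving out 1 of 2 libraries shifts a mean by less than their spread by construction. The highest CDK6 score, for example, was 27.2 without replicate 8 and 50.9 without replicate 9, and so was not stable. Within 50 bp the shared shares were 24.0% in replicate 8 and 37.5% in replicate 9, as follows from the stricter distance. With a minimum score of 10 the mean number of summits per library fell from 20.5 to 7.0, all 5 remaining replicate 9 summits (100%) were shared, and 2 windows, CDKN1A and CDK6, had a pair in place of 4. Fewer summits remain by construction. Shares of the whole lists were taken only at 200 bp without a minimum score. The member shares at these other settings therefore have no list share beside them. The MYC pair was lost within 50 bp, with minimum scores of 5 and 10 and at equal list lengths. CCND1 lost its pair with a minimum score of 10. With lists of equal length the windows held 17 and 16 summits, so the difference of 25 against 16 was not kept. Leaving out a replicate gave 16 to 25 summits, and no value for a share, which needs both. For the highest CDKN1B score nothing was left without replicate 8. With 2 libraries and no read counts per site, a site found in one list alone cannot be read as unbound in the other library.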
